A study of Rattus norvegicus with 12 samples.

Results

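The hypoxia-inducible factor (HIF) pathway genes followed here are Ankrd37, Bnip3, Ndrg1, Adm, Vegfa, Pdk1, Egln1, Egln3, Hif1a and Kdm3a, 10 genes in all, a set chosen by the measured late signals of Ankrd37, which was high on the late α-LA arrays, and by the place of the other 9 in the same pathway. They were found by gene symbol among the 22523 probes of the array, which name 14941 genes. A named probe was present for 8 of the 10, 1 probe per gene, and every one of the 8 reached the signal needed to be tested. Egln3 and Kdm3a have no named probe and are not analysed here. The series profiled FaO cells, an established line of rat hepatoma cells, on 12 Illumina RatRef-12 arrays. There were 3 arrays of control cells, 7 of cells given 500 µM α-lipoic acid (α-LA), renewed daily, for 6, 18, 24, 30, 42, 48 or 72 h, with 1 array per time, and 2 of cells given 0.1 µM thapsigargin (TG), a blocker of the calcium pump of the endoplasmic reticulum (ER) and a reference agent for ER stress. All cells were grown in 10% fetal calf serum and kept in 2% during treatment, and each array holds RNA pooled from 3 wells. The sample titles give 18 and 24 h for the TG arrays and the treatment protocol gives 6 and 18 h, so that they are named here by title and their hours are not settled. The TG dose is that of the labels, and the study's figure legends give another concentration of this agent for other assays. The sources used here do not state when the controls were harvested, and no group was labelled as kept at low oxygen.

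The α-LA arrays at 18, 24 and 30 h were taken as the early group and those at 42, 48 and 72 h as the late group, which makes the times of a group its replicates. Nothing says that the arrays came from separate cultures, so the p-values reflect no more than the spread among these arrays. That spread may be technical, and within the early, late and TG groups it also holds any change between hours. Each array had the same signal range after normalization, 88.3 to 55971, and between 8409 and 8422 probes at 150 or more, the level taken here as above background. Of 11 hepatocyte markers with a probe, 8 reached 150 on every array, whereas Hnf4a and Apoa2 were below it on every array and Cps1 reached it on 2. The summed signal of the hepatocyte markers was 70991 to 87596 in the controls, 38520 to 53152 in the early group, 35893 to 53818 in the late group and 21987 to 22804 with TG, and the part of this shift in the results below was not tested. In RNA pooled from many cells, a change in the share of a kind of cell and a change in RNA per cell cannot be told apart.

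HIF is a transcription factor made of an oxygen-regulated α subunit, of which HIF-1α, the product of Hif1a, is the best known, and a constant β subunit, Arnt. When oxygen is plentiful, prolyl hydroxylases such as Egln1 (PHD2) and Egln3 (PHD3) mark the α subunit for the Vhl ubiquitin ligase, and the protein is destroyed. When it escapes this, HIF binds short DNA motifs with the core ACGTG or GCGTG and raises the transcription of genes for glycolysis, blood vessel growth, mitochondrial turnover and its own hydroxylases. The main control is on the HIF-1α protein, which the arrays do not measure. Liver cells are a classic setting for the pathway, since hepatocytes sit along an oxygen gradient.

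The promoters of 3 members are printed because these genes followed different courses. Ankrd37 and Bnip3 were high late and with TG, whereas Vegfa was highest early. Each sequence holds the 250 bases before the annotated start of transcription in RefSeq's GRCr8 rat assembly, on the gene's strand, and capitals mark the letters ACGTG or GCGTG read on either strand. The Ankrd37 window is chr16:53001257-53001506 on the plus strand, the Bnip3 window is chr1:203154963-203155212 on the minus strand, and the Vegfa window is chr9:22452604-22452853 on the plus strand.
Ankrd37: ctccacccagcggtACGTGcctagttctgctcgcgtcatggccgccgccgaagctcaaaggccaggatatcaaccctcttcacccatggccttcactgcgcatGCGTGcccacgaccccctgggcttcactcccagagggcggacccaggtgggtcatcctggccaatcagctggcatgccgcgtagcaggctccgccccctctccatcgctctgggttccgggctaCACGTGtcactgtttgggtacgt
Bnip3: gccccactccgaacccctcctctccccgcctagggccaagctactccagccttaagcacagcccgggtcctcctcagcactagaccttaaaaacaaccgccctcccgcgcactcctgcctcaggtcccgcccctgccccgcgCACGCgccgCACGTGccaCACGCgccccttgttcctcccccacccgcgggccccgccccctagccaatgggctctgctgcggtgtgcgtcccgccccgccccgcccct
Vegfa: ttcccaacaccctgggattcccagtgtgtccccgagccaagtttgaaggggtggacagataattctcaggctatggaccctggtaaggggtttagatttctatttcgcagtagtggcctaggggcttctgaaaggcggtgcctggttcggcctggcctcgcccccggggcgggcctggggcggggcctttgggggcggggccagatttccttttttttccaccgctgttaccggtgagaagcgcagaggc

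Over windows of 300 bases, from 250 before to 50 after the start, Ankrd37 held ACGTG at 3 sites once overlapping matches on both strands were merged, and 0.397% of the 33469 RefSeq rat promoters held as many. Bnip3 held a single ACGTG site, the palindrome CACGTG, with a GCGTG match on either side of it. Neither annotated Vegfa window held ACGTG or GCGTG, which says only that these letters are not in these windows. At least 1 ACGTG site was found in 5 of the 9 members with a RefSeq promoter, as a description with no test. Counted by gene, the share was 20.9% of the 27457 genes with a promoter and 28.2% of the 6099 that also had a tested probe. It was 22 of 39 for the further HIF genes described below. Counted by single promoter, some genes having several, it was 19.3%. The other members with a site were Hif1a, Pdk1 and Egln1, whose sites are shown with 10 bases on each side because their courses differed from that of Ankrd37. In the Pdk1 and Egln1 fragments the match lies just after the start.
Hif1a: cacagacgagCACGTGagctgggcag
Hif1a: gctgagagcaACGTGggctggggtg
Pdk1: cgcggcccgcCACGTcccgcacgta
Pdk1: ccacgtcccgCACGTagagcccggg
Egln1: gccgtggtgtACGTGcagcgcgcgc

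**Figure D1:**
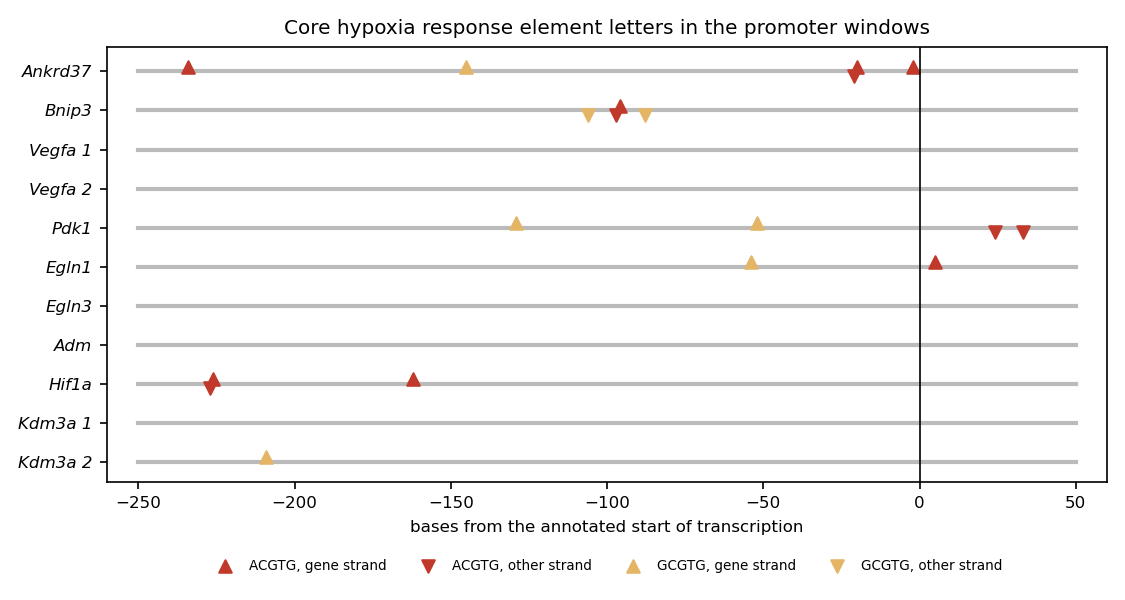
Positions of the letters ACGTG (red) and GCGTG (yellow) in the promoter windows of 9 members, in bases from the annotated start at 0. Triangles point up for the gene's strand and down for the other, and genes with a number have several annotated windows. Ankrd37 holds ACGTG at 3 sites, whereas the Vegfa, Egln3 and Adm windows hold neither motif.

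The late rise of Ankrd37, whose human counterpart is a direct HIF-1 target and which encodes an ankyrin repeat protein, chose these genes and is given as a description, with no test. Its probe (ILMN_1362392, gene at chr16:53001487-53004545 in GRCr8) gave signals of 225, 251 and 238 in the controls and 232 at 6 h. The signals were 186, 173 and 189 at 18, 24 and 30 h, below every control. They were 818, 866 and 425 at 42, 48 and 72 h, so that the late arrays lay above every other α-LA array and 72 h stood well below the other two. The late signals were 3.44, 3.64 and 1.79 times the control mean, in order of time. The late mean was 703 ± 242 (SD, n = 3) and the early mean 183 ± 8.68 (SD, n = 3), a log2 difference of 1.88. Background is still in the deposited signal, and subtracting an estimate of it moved this difference to 2.95. Within this course, the other members asked whether the rise was shared.

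Across the members tested, the late group stood above the early group for 3 of 7 (Bnip3, Ndrg1 and Egln1) and below it for 2 (Vegfa and Pdk1), while Adm and Hif1a did not pass the threshold, an adjusted p of 0.05 in limma. Of all 9193 probes tested, 6.43% were called higher and 7.23% lower in this comparison, 13.7% in all. The groups did not overlap for 5 of the 7, against 30.9% of all probes. The median log2 difference of the 7 members was 0.37, against -0.0020 over all probes. Only Bnip3 and Ndrg1 combined a late rise over the early group with a call over the controls. The comparisons below share their control, early or late arrays with each other, so the values of a gene in several of them are not independent.

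Bnip3, a receptor in the outer mitochondrial membrane that draws mitochondria into autophagy, followed Ankrd37 most closely. Its signals (ILMN_1356892) were 2216, 1727 and 1844 in the controls, 2068 at 6 h, and 2118, 2401 and 2807 at 18, 24 and 30 h. At 42, 48 and 72 h they were 7027, 5268 and 3898, and no late array overlapped the early or control arrays. Late signal was 2.16-fold the early signal (log2 difference 1.11, SE 0.19, adjusted p = 0.0040, limma) and 2.73-fold the control signal (1.45, SE 0.19, adjusted p = 0.00012). The early group overlapped the controls (0.34, SE 0.19, adjusted p = 0.21). Both late calls held under each of the 16 alternatives run, with an adjusted p of at most 0.019 for late against early. As for Ankrd37, the fold over the control mean was lower at 72 h (2.03) than at 42 h (3.66) or 48 h (2.75), each from 1 array.

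Ndrg1 encodes a cytosolic protein induced by hypoxia and other stresses and linked to cell differentiation. It gave signals (ILMN_2040297) of 290, 295 and 268 in the controls and 252 at 6 h. At 18, 24 and 30 h they were 228, 236 and 310, a spread that reached across the control range. At 42, 48 and 72 h they were 431, 422 and 442, a narrow plateau above every other array, with no lower value at 72 h. Late signal was 1.69-fold the early signal (log2 difference 0.76, SE 0.12, adjusted p = 0.0025, limma) and 1.52-fold the control signal (0.60, SE 0.12, adjusted p = 0.0018). Both calls held under each of the 16 alternatives, and after background subtraction the late minus early difference was 1.17.

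**Figure D2:**
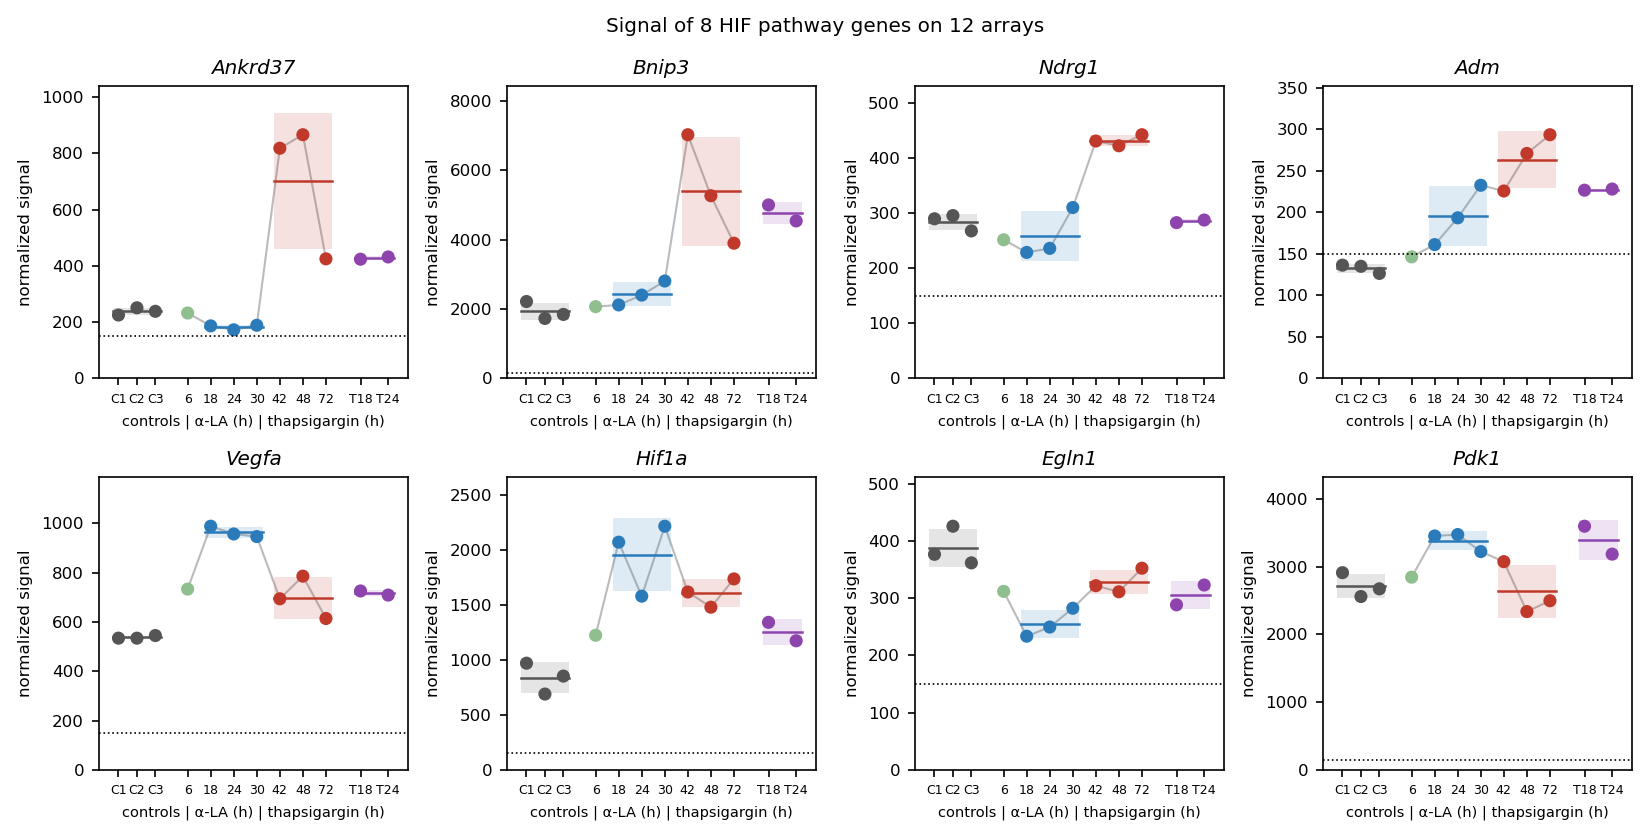
Normalized signal (linear scale) of the 8 measured members on the 12 arrays: controls C1 to C3 in grey, α-LA at 6 h in green, early in blue and late in red, and TG by title (T18, T24) in purple. Coloured lines and bands are group means ± 1 SD, the grey line joins the α-LA arrays, and the dotted line is a signal of 150. Among the α-LA arrays, Ankrd37, Bnip3 and Ndrg1 are highest at 42 to 72 h. With TG, Bnip3 (5001 and 4540) is above its 72 h signal of 3898, and Ankrd37 (424 and 432) is close to its 72 h signal of 425. Vegfa is highest at 18 to 30 h (946 to 988), and Egln1 is lowest there (233 to 282).

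Adm, which encodes the vasodilator peptide adrenomedullin, rose over the whole course rather than at 42 h. Its signals (ILMN_1356203) were 136, 135 and 126 in the controls and 146 at 6 h, all below 150. They were 161, 193 and 233 at 18, 24 and 30 h and 226, 271 and 294 at 42, 48 and 72 h, so that early and late groups overlapped. Because the controls have only a bound, the early signal was at least 1.29-fold and the late signal at least 1.75-fold the control signal. Such bounds set the mean log2 signal of the brighter group against 150 wherever every array of the dimmer group was below it. The adjusted p-values (0.0103 early and 0.00019 late, limma) belong to the measured log2 differences, 0.55 and 0.98, and not to the bounds. Adm reached 150 on 8 arrays, all treated, so it passed the filter only through groups where it was high. Its calls over control therefore add no independent support. The late minus early difference of 0.44 did not pass (SE 0.14, adjusted p = 0.059), and passed in 4 of 16 alternatives.

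Vegfa, the main growth factor for blood vessels, had its highest signals before Ankrd37 rose. They were 534, 534 and 545 in the controls, 733 at 6 h, and 988, 957 and 946 at 18, 24 and 30 h (ILMN_1371686). At 42, 48 and 72 h they fell to 694, 786 and 614, below every early array and above every control. Early signal was 1.79-fold the control signal (log2 difference 0.84, SE 0.10, adjusted p = 9.3e-05, limma) and late signal 1.29-fold (0.37, SE 0.10, adjusted p = 0.0127). The late call over control was lost without the 48 h array (adjusted p = 0.058). Late minus early was -0.47 (SE 0.10, adjusted p = 0.0109), the opposite direction to Bnip3 and Ndrg1, and held under each of the 16 alternatives.

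Hif1a, the oxygen-regulated subunit itself, was above every control at 6 h and higher still from 18 h on. Its signals (ILMN_1355979) were 971, 690 and 854 in the controls and 1225 at 6 h, 1.48-fold the control mean on 1 array that entered no test. They were 2073, 1582 and 2218 at 18, 24 and 30 h and 1619, 1481 and 1739 at 42, 48 and 72 h, above every control on each of these 6 arrays. The early group stood 2.33-fold (log2 difference 1.22, SE 0.15, adjusted p = 0.00011, limma) and the late group 1.94-fold (0.96, SE 0.15, adjusted p = 0.00044) above the controls. Late and early groups overlapped and did not differ past the threshold (-0.27, 95% interval -0.60 to 0.06, adjusted p = 0.27). The mRNA of the factor was already high on arrays where Ankrd37 was below its controls.

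Egln1, the main oxygen sensor that hydroxylates HIF-1α, moved the opposite way to Vegfa and Hif1a. Its signals were 376, 425 and 361 in the controls and 312 at 6 h (ILMN_1372484, named through the study's table). They were 233, 249 and 282 at 18, 24 and 30 h and 322, 311 and 352 at 42, 48 and 72 h, with no overlap between the 3 groups. Early signal was lower than control by 0.61 on the log2 scale (SE 0.11, adjusted p = 0.0011, limma), a ratio of 0.66. Late minus control was -0.24 and did not pass (SE 0.11, adjusted p = 0.0998), and late minus early was 0.37 (SE 0.11, adjusted p = 0.041), a call that held in 7 of 16 alternatives. The highest late signal was below the lowest control, unlike that of Ankrd37.

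Pdk1, a kinase that shuts pyruvate dehydrogenase and keeps pyruvate out of the mitochondrial cycle, was bright and moved little. Its signals (ILMN_1363982) were 2913, 2560 and 2674 in the controls, 2847 at 6 h, 3455, 3476 and 3224 at 18, 24 and 30 h, and 3076, 2338 and 2498 at 42, 48 and 72 h. Early signal was 1.25-fold the control signal (log2 difference 0.32, SE 0.11, adjusted p = 0.048, limma), and late minus early was -0.37 (SE 0.11, adjusted p = 0.0499). These calls sit at the threshold, the first passing in 7 and the second in 2 of 16 alternatives. Late and control groups overlapped (-0.05, 95% interval -0.30 to 0.20, adjusted p = 0.77).

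Counted together, 4 of the 7 members tested stood higher and 1 lower early than in control cells, where 32.3% of all probes were called, 16.6% higher and 15.7% lower. In the late group 5 were higher and 0 lower, with 1 (Egln1) lower at an unadjusted p under 0.05 in limma, where 36.7% of all probes were called, 19.1% higher and 17.7% lower. Adm, counted as higher both early and late, passed the filter on signal only through treated arrays. The members' median log2 difference was 0.34 early and 0.60 late, against 0.01 and 0.02 over all probes. Early and control arrays did not overlap for 5 of the 7, and 44.8% of all probes showed the same. Late and control arrays did not overlap for 6 of the 7, against 51.2% of all probes.

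**Figure D3:**
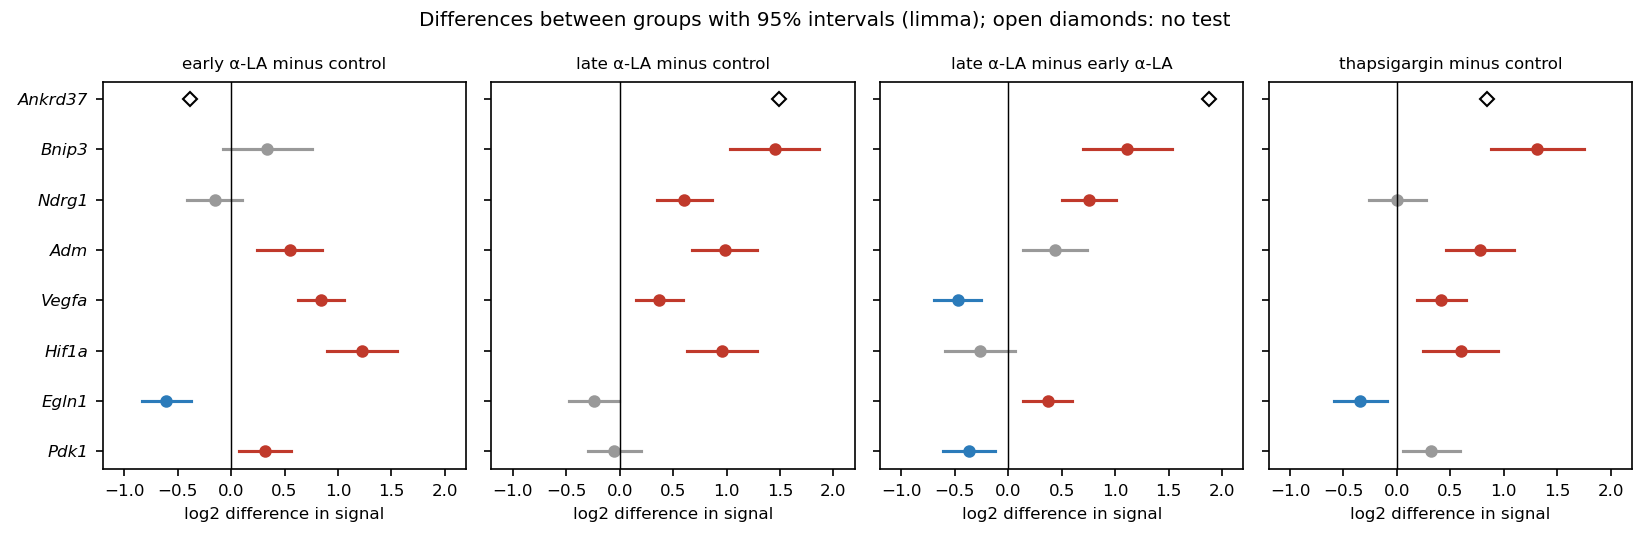
Log2 difference in signal between groups for the 8 measured members, with 95% intervals from limma. Red marks genes called higher, blue called lower and grey those not past the threshold, and open diamonds are Ankrd37, which was not tested. In late minus early, Bnip3 (1.11) and Ndrg1 (0.76) lie to the right of 0 and Vegfa (-0.47) to the left.

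The TG arrays asked whether the same genes answer a direct inducer of ER stress. Ankrd37 gave 424 and 432 with TG, above every control and close to its 72 h α-LA signal of 425. This was 1.80-fold the control signal, a log2 difference of 0.85 that is given with no test, since the control signals also entered the choice of the gene. After background subtraction the difference was 1.32.

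Of the 7 members tested against the controls, 4 were higher with TG (Bnip3, Adm, Hif1a and Vegfa) and 1 was lower (Egln1), where 37.9% of all probes were called, 19.2% higher and 18.7% lower. TG and control arrays did not overlap for 6 of the 7, against 64% of all probes. The median over the 7 was 0.42, against 0.01 over all probes. Bnip3 gave 5001 and 4540, 2.48-fold the control signal (log2 difference 1.31, SE 0.20, adjusted p = 0.00020). Adm gave 227 and 228, at least 1.52-fold (adjusted p = 0.00092 in limma for the measured log2 difference of 0.78). It passed the filter only through treated arrays, and the Bnip3 and Adm calls held under each of the 17 alternatives. Hif1a gave 1343 and 1175 (1.51-fold, adjusted p = 0.0106) and Vegfa 726 and 709 (1.33-fold, adjusted p = 0.0072). Both calls were lost without the 18 h TG array, at an adjusted p of 0.11 and 0.060, the lone TG array then being assumed to vary like the other groups. Egln1 gave 288 and 323, lower than control by 0.34 on the log2 scale (adjusted p = 0.032), a call that 4 of 17 alternatives lost.

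Ndrg1 is the member whose late rise TG did not show. Its signals with TG were 283 and 287, within the control range of 268 to 295, and the log2 difference from control was 0.01 (95% interval -0.26 to 0.27, adjusted p = 0.98, limma). TG stood below the late α-LA group by 0.60 (95% interval -0.87 to -0.33, adjusted p = 0.0038), and this held under each of the 17 alternatives. Between TG and the late group, agent and hours differ together, so that their parts cannot be told apart. With early α-LA, at the nearest titled hours, Ndrg1 gave 228, 236 and 310. TG minus early did not pass for it (0.16, adjusted p = 0.39, limma). Pdk1 gave 3599 and 3187 with TG, higher than late α-LA by 0.37 (adjusted p = 0.042, kept in 6 of 17 alternatives) and not past the threshold over control (0.32, adjusted p = 0.056). These were the only calls among the 7 members tested between TG and the late group, where 25.1% of all probes were called, 12.9% higher and 12.2% lower. The TG and late arrays did not overlap for 3 of the 7, against 55.7% of all probes. For Bnip3 the interval of that difference ran from -0.57 to 0.30, for Vegfa from -0.18 to 0.28, and for Hif1a from -0.71 to -0.01 before adjustment (adjusted p = 0.13).

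Set against early α-LA, at the nearest hours in the titles, TG gave more Bnip3 (log2 difference 0.97, SE 0.20, adjusted p = 0.0032, limma) and less Vegfa (-0.43, SE 0.11, adjusted p = 0.0095) and Hif1a (-0.62, SE 0.16, adjusted p = 0.0121). The other 4 members tested did not pass. Over all probes 27.5% were called, 13.6% higher and 13.9% lower, and the groups did not overlap for 4 of the 7 members and 52.8% of all probes. The Bnip3 call held under each of the 17 alternatives, whereas Vegfa was lost without either TG array (adjusted p up to 0.077) and Hif1a without the 24 h TG array (adjusted p = 0.12). Ankrd37, not tested here, was 2.34-fold higher with TG than in the early group.

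Each member's log2 signal was correlated with that of Ankrd37 over the 12 arrays, as a description. These are the arrays of the comparisons above, they share controls and a time course, and the late Ankrd37 signals chose the set, so the values add no independent evidence. Pearson's r was 0.88 for Bnip3, 0.81 for Ndrg1 and 0.62 for Adm, then 0.20 for Egln1, 0.07 for Hif1a, -0.17 for Vegfa and -0.36 for Pdk1. Among 8376 named probes tested, these placed Bnip3 45th, Ndrg1 136th and Adm 709th. Leaving out 1 array at a time, r ranged from 0.83 to 0.90 for Bnip3, from 0.75 to 0.86 for Ndrg1 and from -0.30 to -0.03 for Vegfa. Among the members, Vegfa and Egln1 ran most nearly opposite (r = -0.94), Vegfa and Hif1a ran together (r = 0.82), and so did Bnip3 and Adm (r = 0.82).

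The probe most like Ankrd37 was that of Eif2ak3, which encodes PERK, the ER stress kinase that slows translation (r = 0.98). Its signals were 277 to 329 in the controls, 275 to 306 in the early group, 687, 688 and 426 at 42, 48 and 72 h, and 459 and 432 with TG, the same order of groups with a drop at 72 h. The next were Sh2d4a (0.97), Rp1h (0.96), Cdkn1a (0.95), which encodes the cell cycle inhibitor p21, Nedd4l (0.95), a ubiquitin ligase, LOC501441 (0.95), Tbc1d23 (0.95) and Rbm8a (0.95), a part of the exon junction complex. The Cdkn1a probe was dim, at 123 to 138 in the early group and 193 to 223 in the late group. Most opposed were Polr1c (-0.96), a shared subunit of RNA polymerases I and III, Myg1 (-0.96) and B4gat1 (-0.94). Polr1c gave 7146 to 8007 in the controls, 7294 to 8173 early, 4114, 4430 and 4998 late, and 5632 and 5613 with TG. None of these 11 genes is among the HIF genes listed here.

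**Figure D4:**
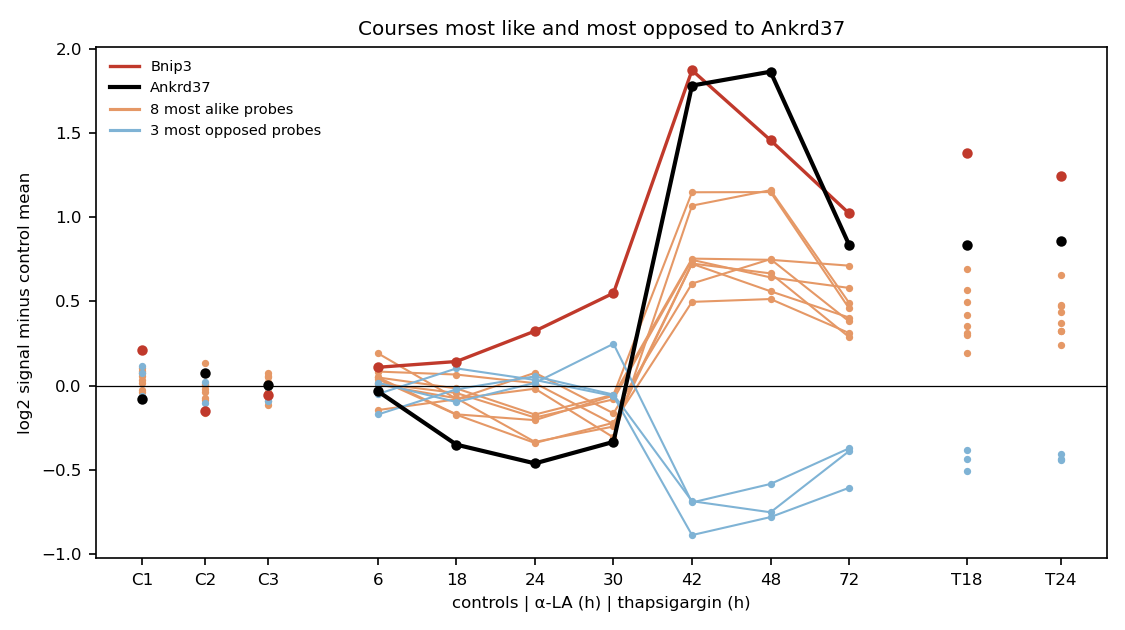
Log2 signal minus the mean of the 3 controls for Ankrd37, Bnip3, the 8 named probes most like Ankrd37 and the 3 most opposed, on the 12 arrays. Lines join the α-LA arrays only. Through 30 h the 8 alike probes lie near or somewhat below 0. At 24 h Cdkn1a was 123 and Tbc1d23 378, against control means of 156 and 478. The 8 rise at 42 h with smaller steps than Ankrd37 and are above their control means on both TG arrays.

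A wider list of 86 HIF regulators and targets, sorted by role, was set beside the members. A probe was named for 72 and 46 passed the filter on signal. Among those below it were classic targets whose signals stayed at background here. Examples are the glucose transporter Slc2a1 (118 to 143 over the 12 arrays), hexokinase Hk2 (101 to 140), Pfkfb3 (106 to 142) and Epo (107 to 135). The β subunit Arnt, a regulator, also stayed there (116 to 143), and whether such probes can respond was not tested. In the early group 18 of the 46 were higher and 4 lower than control, in the late group 17 and 3, and with TG 20 and 5, against the shares of all probes given above. Their median log2 differences were 0.19, 0.27 and 0.27. Late against early, 3 were higher and 2 lower, a share near the 13.7% of all probes called in that comparison.

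The 3 that shared a late rise over early were Bnip3l, Cited2 and Insig2. Bnip3l, the close relative of Bnip3 and likewise a mitophagy receptor, gave 2601, 1993 and 2167 in the controls and 1803, 1722 and 1322 early. It gave 3969, 3694 and 3079 late, without overlap, so that the late group was 2.22-fold the early group (log2 difference 1.15, SE 0.15, adjusted p = 0.0012, limma) and above the controls (0.67, adjusted p = 0.0038). Like Ankrd37 it was lowest in the early group (-0.48 against control, adjusted p = 0.025, lost in 5 of 16 alternatives), and its r with Ankrd37 was 0.87. Its TG signals of 2509 and 2223 overlapped the controls (0.08, adjusted p = 0.75) and were below the late group (-0.59, adjusted p = 0.016), a call lost without either TG array.

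Insig2, an ER protein that restrains cholesterol synthesis, gave 924 to 1071 in the controls, 1159 to 1485 early, 1939 to 2111 late and 1305 and 1385 with TG. Late exceeded early by 0.59 (SE 0.11, adjusted p = 0.0065), and TG exceeded control by 0.44 (adjusted p = 0.0108), a call lost without the 24 h TG array. Cited2, which competes with HIF-1α for its coactivators, gave 748 to 883 in the controls, fell to 403 to 580 early (-0.78, adjusted p = 0.0015) and returned to 807 to 1030 late (0.10 against control, adjusted p = 0.63). With TG it was at 393 and 378, lower than control by 1.09 (adjusted p = 9.3e-05). The late against early calls of these 3 genes held under each of the 16 alternatives. Opposite to them, Bhlhe40, a transcriptional repressor induced by HIF, gave 387 to 481 in the controls, 1238 to 1500 early, 780 to 876 late and 799 and 685 with TG. Its late minus early difference was -0.69 (SE 0.11, adjusted p = 0.0029), and a like order, highest early, was that of Vegfa. Tgfa, a growth factor, was lower late than early (-0.48, adjusted p = 0.037), a call kept in 8 of 16 alternatives.

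Among the enzymes of glucose use, 4 of 11 tested were higher and 1 lower early, 4 and 0 late (5 and 0 at an unadjusted p under 0.05 in limma), and 5 and 1 with TG. The shares of all probes called were 16.6% and 15.7% early, 19.1% and 17.7% late, and 19.2% and 18.7% with TG, and they apply to the roles that follow too. Eno2, an enolase, rose from 171 to 203 in the controls to 552 to 987 early and 669 to 888 late (log2 differences 1.98 and 1.98, adjusted p = 1.9e-05 and 9.6e-06) and was 440 and 461 with TG (1.24, adjusted p = 0.00024). Aldoa, the muscle-type aldolase, was higher by 1.21 early, 1.28 late and 1.73 with TG (adjusted p = 0.00052, 0.00026 and 2.1e-05). Ppp1r3c, a scaffold for glycogen synthesis, was higher by 1.01, 0.61 and 0.51 (adjusted p = 0.00012, 0.0026 and 0.0088), the TG call being lost without the 18 h TG array. Late against early, 0 of the 11 passed the threshold in limma, where 6.43% of all probes were called higher and 7.23% lower. At an unadjusted p under 0.05 in limma, 2 were higher (Eno1 and Gpi) and 1 was lower (Ppp1r3c). The share of all probes at that unadjusted level was not computed. Nothing is therefore drawn from these counts or from the 5 and 0 given above.

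In the group of mitochondria and cell survival, Lonp1, the protease of the mitochondrial matrix, was higher by 1.81 early, 1.66 late and 2.56 with TG (adjusted p = 8.7e-05, 0.00010 and 2.6e-06). Ddit4, an inhibitor of mTORC1, was highest with TG, at 547 and 586 with TG against 229 to 250 in the controls (1.22, adjusted p = 8.8e-05), and at 258 to 398 late (0.48, adjusted p = 0.033, kept in 9 of 16 alternatives). TG exceeded the late group for it by 0.74 (adjusted p = 0.0068), a call lost without the 24 h TG array. Of the 4 secreted factors tested, Igfbp1, an insulin-like growth factor binding protein made by liver, already gave 14361 at 6 h against 3879 to 4716 in the controls, and was higher by 1.65 early, 1.73 late and 2.36 with TG (adjusted p = 0.00028, 0.00014 and 9.8e-06). Edn1, the vasoconstrictor endothelin, was below 150 in every control and at least 1.04-fold higher early. The measured log2 difference was 0.34 (adjusted p = 0.038, limma, kept in 8 of 15 alternatives). Only the 30 h, 48 h and 18 h TG arrays reached 150, so Edn1 passed the filter through treated arrays alone. It is counted among the further genes higher early, without independent support. Its early signals of 145 and 143 were also below 150, and only the 184 at 30 h was above it. Tgfa was lower with TG (-0.59, adjusted p = 0.0063), a call lost without the 24 h TG array.

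Of 9 regulators, Vhl, which brings hydroxylated HIF-1α to its ubiquitin ligase, was higher by 0.64 early, 0.55 late and 0.42 with TG (adjusted p = 0.0028, 0.0060 and 0.032, the last kept in 12 of 17 alternatives). Cul2, the scaffold of that ligase, was higher with TG (0.51, adjusted p = 0.0130), a call lost without either TG array. Of 5 genes of matrix and collagen modification tested, 2 were higher early, 2 late and 4 with TG. P4ha1, a prolyl 4-hydroxylase subunit, was higher by 0.62, 0.79 and 0.61 (adjusted p = 0.026, 0.0062 and 0.031), Plod1, a lysyl hydroxylase, by 0.44, 0.54 and 0.47 (adjusted p = 0.0111, 0.0029 and 0.0068), and Ero1a, an ER oxidase, by 0.64 with TG alone past the threshold (adjusted p = 0.0054). The TG call of Plod1 was lost without the 24 h and that of Ero1a without the 18 h TG array. The early and TG calls of P4ha1 were each lost in 4 alternatives, all of which left out 1 array.

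Among the genes of iron and heme, Hmox1, the inducible heme oxygenase, rose from 347 to 387 in the controls to 1196 to 1631 early, 1338 to 1548 late and 1304 and 1214 with TG (log2 differences 1.95, 1.98 and 1.81, adjusted p = 1.4e-06, 7.1e-07 and 5.7e-07). Tf, transferrin, which is also among the hepatocyte markers above, was lower by 0.66, 0.68 and 1.82 on the log2 scale (adjusted p = 0.0100, 0.0069 and 5.3e-06). Tfrc, its receptor, was lower late by 0.59 (adjusted p = 0.038, kept in 8 of 16 alternatives). In the remaining groups, Plin2, which coats lipid droplets, and Wsb1, a ubiquitin ligase adaptor, separated the treatments. Plin2 gave 2512 to 2953 in the controls, 8826 to 9938 early, 7534 to 8173 late, and only 2766 and 2896 with TG (0.08, adjusted p = 0.61), which stood below the late group by 1.49 on the log2 scale (adjusted p = 2.1e-06). Wsb1 was higher by 0.89 early and 1.09 late (adjusted p = 0.00076 and 0.00014) and not past the threshold with TG (0.21, adjusted p = 0.32). TG stood below the late group for it by 0.88 on the log2 scale (adjusted p = 0.0014). At the nearest titled hours, TG minus early was -1.74 for Plin2 and -0.68 for Wsb1 (adjusted p = 7.9e-07 and 0.0057, limma). Kdm4c, a histone demethylase, was higher by 0.47, 0.62 and 0.34 (adjusted p = 0.0083, 0.0013 and 0.042, the last kept in 9 of 17 alternatives).

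**Figure D5:**
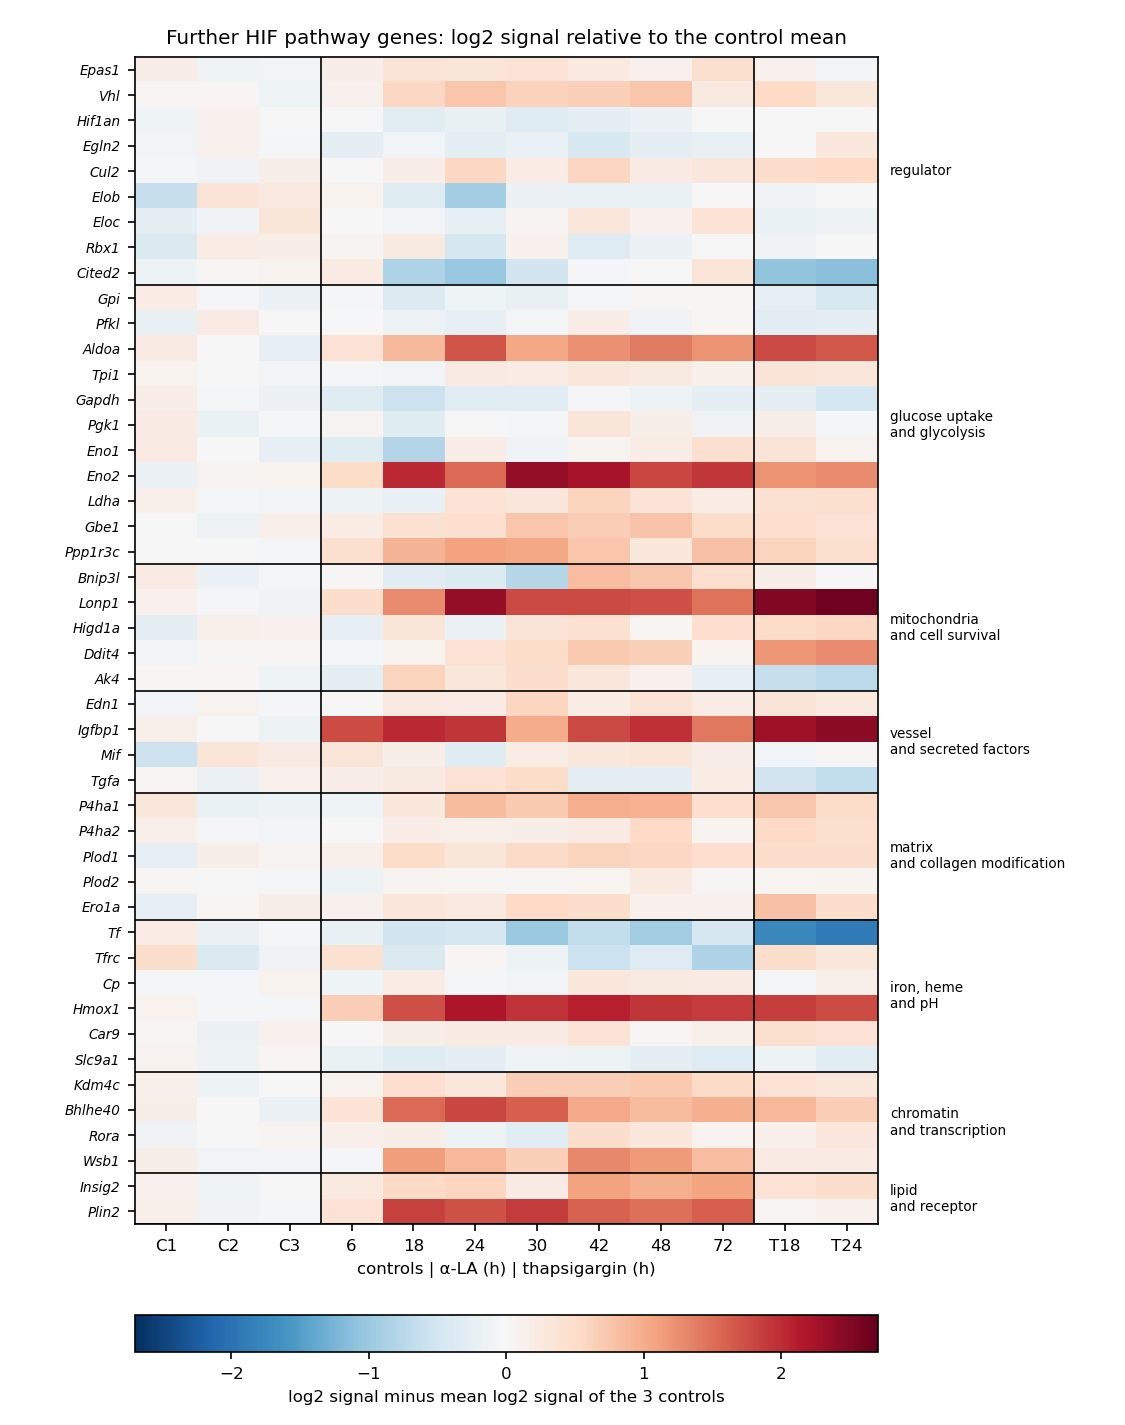
Log2 signal minus the mean log2 signal of the 3 controls for the 46 further HIF genes tested, by role, on the 12 arrays (T18 and T24 are TG by title). Red is higher and blue lower than the control mean. Hmox1 and Eno2 are red from 18 h on, Plin2 is red from 18 h with α-LA and pale with TG, and Bnip3l turns from blue early to red at 42 h.

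Of 53 members and further genes tested besides Ankrd37, 4 (Bnip3, Ndrg1, Bnip3l and Insig2) were called both higher late than early and higher late than control, as were 4.04% of all probes. Bnip3 and Insig2 were also higher with TG than in the controls, Insig2 with the loss named above. TG stood below late α-LA for Ndrg1, Insig2 and, with both TG arrays, Bnip3l, whereas the Bnip3 signals with TG lay within the late range of 3898 to 7027. The TG and late arrays differ in hours as well as in agent.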

How the data were processed

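RNA of FaO cells was hybridised to 12 Illumina RatRef-12 arrays. Per the methods and the submitters' processing notes, the authors read the scans with BeadStudio 3.0.19.0, worked in BRB-ArrayTools and quantile-normalized the arrays. The deposited table used here gives the normalized intensity of 22523 probes on a linear scale. Its values still carry background, and the sources do not say if any was removed. A further table before normalization was not used, because its 24 per-sample columns match no sample by name.

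Probes were named from the platform annotation (13793) or else from the study's table (1682), and 7048 have no symbol. The 9193 probes with a signal of 150 or more on at least 3 arrays entered limma 3.58.1 (R 4.3.3) as log2 values, with lmFit, then eBayes, and p-values were adjusted over all of them by Benjamini-Hochberg, with 0.05 as the threshold. Controls, early and late α-LA were fitted together, and with TG added for the TG comparisons. The 6 h array entered no test, and Ankrd37 none of the counts of calls. Where every array of the dimmer group was below 150, the fold is a bound against 150, and the adjusted p is that of the measured difference. The filter did not use the groups, so Adm and Edn1 passed it through treated arrays alone. A further gene with several probes was read from the one brightest on average. The script was tested on simulated data. The number of arrays limits the precision.

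The members and lists were chosen with earlier results of these data known. Named genes are the 10 members, up to 3 further HIF genes per role with the largest difference past the threshold, and the 8 probes most like and 3 most opposed to Ankrd37. Hk2, Slc2a1, Pfkfb3, Epo, Arnt, Eno1 and Gpi were named after their values were seen. Alternatives were no filter, a signal of 200, subtraction of each array's 10th percentile with a floor of 16, an intensity trend, other sets of groups, each array left out, and, chosen after seeing the data, control 1 and the 24 h array both left out, since 33 and 38 probes with a median over 300 were at least 2-fold below the rest of their group there. The 72 h array had 36 such probes. Promoters are those of RefSeq's GRCr8, and Ndrg1 was not matched.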

Additional observations from a re-analysis of the deposited data

Results flagged for a closer look

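For 5 members the response to α-LA differed between late and early times by limma's test of the difference itself. The log2 difference was 1.11 for Bnip3 and 0.76 for Ndrg1, and the late group stood above the early group on every array. Of all probes, 13.7% differed in this comparison. For Egln1 it was 0.37, for Vegfa -0.47 and for Pdk1 -0.37, and of 16 alternatives the Egln1 call was lost in 9 and the Pdk1 call in 14.

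TG and early α-LA, set against the same controls, differed for 3 members, with more Bnip3 (0.97) and less Vegfa (-0.43) and Hif1a (-0.62) under TG, where 27.5% of all probes differed. The Vegfa call was lost without either TG array and the Hif1a call without the 24 h TG array. TG and late α-LA differed for Ndrg1 (-0.60) and Pdk1 (0.37), where 25.1% of all probes differed, and the Pdk1 call was kept in 6 of 17 alternatives. These differences are read from 2 TG arrays whose hours the titles and the protocol give differently. Between TG and late α-LA, agent and hours cannot be told apart.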

How the results depend on the processing

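Of the tested values of members and further genes under an alternative, 1580 kept their direction and side of the threshold, 116 were no longer past it, 13 newly passed and 12 changed sign. The cause was not tested. Late against early, members called lower were 2, and 1 with no filter, a signal of 200, background subtraction, an intensity trend, the 2 groups alone or both control 1 and 24 h left out (1 to 2 leaving out 1 array), Vegfa being kept in each. Probes called there were 1256, 829 with the 2 groups alone and 704 to 1271 leaving out 1 array, the fewest without 42 h, with 784 without 48 h. Further HIF genes called lower there were 2, and 1 under background subtraction, the 2 groups alone or both arrays left out, 4 with 4 groups fitted together, and 1 to 3 leaving out 1 array. Late against control, further genes lower were 3, 1 after background subtraction, and 1 to 3 leaving out 1 array (1 without control 3 or 42 h). Early against control, members lower were 1, and 2 (Ndrg1 added) without 30 h.

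With TG against control, members lower were 1, 0 after background subtraction, and 0 to 1 leaving out 1 array. Members higher were 4, and 2 to 5 leaving out 1 array, with only Bnip3 and Adm without TG 18 h, and probes called were 3484, and 2306 (again without TG 18 h) to 3702. Further genes higher were 20, and 9 to 21, with 9 and 10 without TG 18 h or TG 24 h, and lower 5, and 3 to 6, with 3 without TG 24 h. TG against early gave 2530 probes, and 1276 to 2794 leaving out 1 array, with 1276 and 1370 without TG 18 h or TG 24 h. Members lower there were 2, then 1 and 0, members higher 1, and 2 without 30 h. Further genes higher there were 4, 8 with control 1 and 24 h both left out, and 1 to 8 leaving out 1 array, and lower 8, and 5 to 9, with 5 without TG 18 h. TG against late gave 2306 probes, and 958 to 2641, with 958 and 1061 without TG 18 h or TG 24 h. Members higher there were 1 (Pdk1), 0 with no filter, background subtraction, an intensity trend or the 2 groups alone and 0 to 1 leaving out 1 array, and members lower were 1, and 2 (Hif1a added) with the 2 groups alone or both arrays left out. Further genes higher there were 4, and 1 to 5, with 2 and 1 without TG 18 h or TG 24 h.

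The 12 changes of sign were in values near 0 that passed no threshold. Late against control, Pdk1 ranged from -0.17 to 0.032 leaving out 1 array, above 0 without 48 h or control 1 (0.0013, as with control 1 and 24 h both left out), and Cited2 from -0.014 (without 72 h) to 0.16. TG against control, Ndrg1 ranged from -0.038 (without control 3) to 0.034, and Bnip3l from -0.011 (without TG 18 h) to 0.18. TG against early, Pdk1 ranged from -0.086 (without TG 18 h) to 0.089. TG against late, Bnip3 ranged from -0.35 to 0.073 (without 42 h) and Vegfa from -0.042 (without 72 h) to 0.14. Background subtraction moved Adm most, from 0.98 to 2.81 for late against control, where the controls were below 150.

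No paired analysis was possible because the numbers of the controls, time points and TG arrays mark no shared culture, animal or day. With 1 array per time and 2 TG arrays, a call that 1 array decides cannot be separated from that array, and signals near 150 are limited by background.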
